A study of Mus musculus with 26 samples.

Results

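The mitochondrial protein import machinery was followed in brown adipose tissue (BAT) as 36 protein-coding genes of the 50686 genes in the count table. The members were taken by name: every protein-coding symbol starting with Timm or Tomm and a number, plus Pam16, Dnajc19, Grpel1, Grpel2, Hspa9, Samm50, Mtx1, Mtx2, Pmpca, Pmpcb and Chchd4. The rule reads names and biotypes only. RNA-sequencing had been carried out on BAT of 26 male C57BL/6J mice aged 12 to 16 weeks. The 4 groups were 7 control mice and 7 mice labelled FAKO kept at thermoneutrality, and 5 control mice and 7 mice labelled FAKO placed at 5 °C for 6 h. All mice had been acclimated to thermoneutrality for 2 weeks, which the labels give as 30 °C and the study's methods as 29 °C. The label FAKO stands for fat-specific Afadin knockout, made by crossing Adiponectin-Cre with mice whose Mllt4 gene (the older name of Afdn) was floxed. Controls were littermates, and their exact genotype is not given in the sources used here. Adiponectin-Cre acts in adipocytes, so other cells of the tissue keep the gene.

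Nearly all mitochondrial proteins are made in the cytosol and have to be carried across one or both mitochondrial membranes. The TOM complex is the entry gate of the outer membrane, and the SAM complex inserts barrel-shaped proteins into that membrane. Small Tim chaperones escort hydrophobic proteins through the intermembrane space to the TIM22 complex, which inserts metabolite carriers and related proteins into the inner membrane. The TIM23 complex and its ATP-driven motor pull proteins with a cleavable presequence into the matrix, where the mitochondrial processing peptidase removes the presequence. Chchd4, the oxidoreductase of the intermembrane space, folds and traps small cysteine-rich proteins there. Brown adipocytes are rich in mitochondria, and they raise heat production through Ucp1, an inner membrane protein of the carrier family.

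The libraries held 12705969 to 25732258 counts assigned to genes, and the labels name no batch. Afdn, the targeted gene, did not check the labels at thermoneutrality, with a level in CPM (counts scaled to the effective size of the library) of 196 ± 21.0 (SD, n = 7) in controls and 195 ± 27.4 (SD, n = 7) under the FAKO label. After cold it stood at 73.5 ± 4.27 CPM (SD, n = 5) and 58.5 ± 4.15 CPM (SD, n = 7). The groups are therefore called by their label. The brown adipocyte markers Ucp1, Cidea, Dio2, Cox7a1 and Cox8b were counted in every mouse, Elovl3 was at 0 in the lowest mouse at thermoneutrality, and Ucp1 ranged from 551 CPM in the lowest mouse at thermoneutrality to 20990 CPM in the highest after cold. Genes of the mitochondrial genome took 14.3% to 40.5% of the counts, with a median of 37.2% in control mice at thermoneutrality and of 27.6% to 28.3% in the other groups. The sum of 6 skeletal muscle markers ran from 1.03 to 7132 CPM and spread widely within every group, and 10 mice exceeded 1000 CPM (2 and 3 at thermoneutrality, 2 and 3 after cold, control mice named first in each). Lymphocyte markers stayed at or below 12.4 CPM in sum. Results with these libraries left out are given with the counts of members below.

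The import genes covered a wide range of levels. Scaled to the summed exon length, Hspa9, the mitochondrial Hsp70 at the heart of the import motor, had the highest level in control mice at thermoneutrality, 223 CPM per kb. Timm8b (61.5), Tomm7 (48.9), Timm13 (45.3) and Grpel1 (37.4) followed, all in CPM per kb. The channel genes Timm23 (10.2), Tomm40 (8.60) and Timm22 (5.10) lay lower on the same scale. The summed length takes every annotated exon of a gene, used in this tissue or not, so the order depends in part on the annotation. Timm8a1 had 1.44 CPM per kb and gave as few as 20 counts in a mouse. After cold the order had changed in control mice, and Timm9 had moved from 4.61 to 18.1 CPM per kb and Tomm70a from 9.37 to 28.6 CPM per kb. Tomm6 (4 to 23 counts per mouse) and Tomm20l (0 to 23 counts) gave few counts. Timm8a2 had 0 to 3 counts, failed the filter on low counts and was not tested, which left 35 members. Of the bases of Tomm6, 84.2% lay within other annotated genes on both strands, and of those of Tomm40l, 64.3% lay within Nr1i3 on the opposite strand. The strand setting of the counting and its handling of reads shared by genes are not given in the sources used here. The values of these 2 members are therefore uncertain. Smaller parts were shared with other genes by Mtx1 (30.1%), Timm10b (22.1%), Pmpca (20.4%), Pam16 (18.7%), Timm8b (15.6%) and Grpel1 (11.65%), to which the same limit applies.

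**Figure D1:**
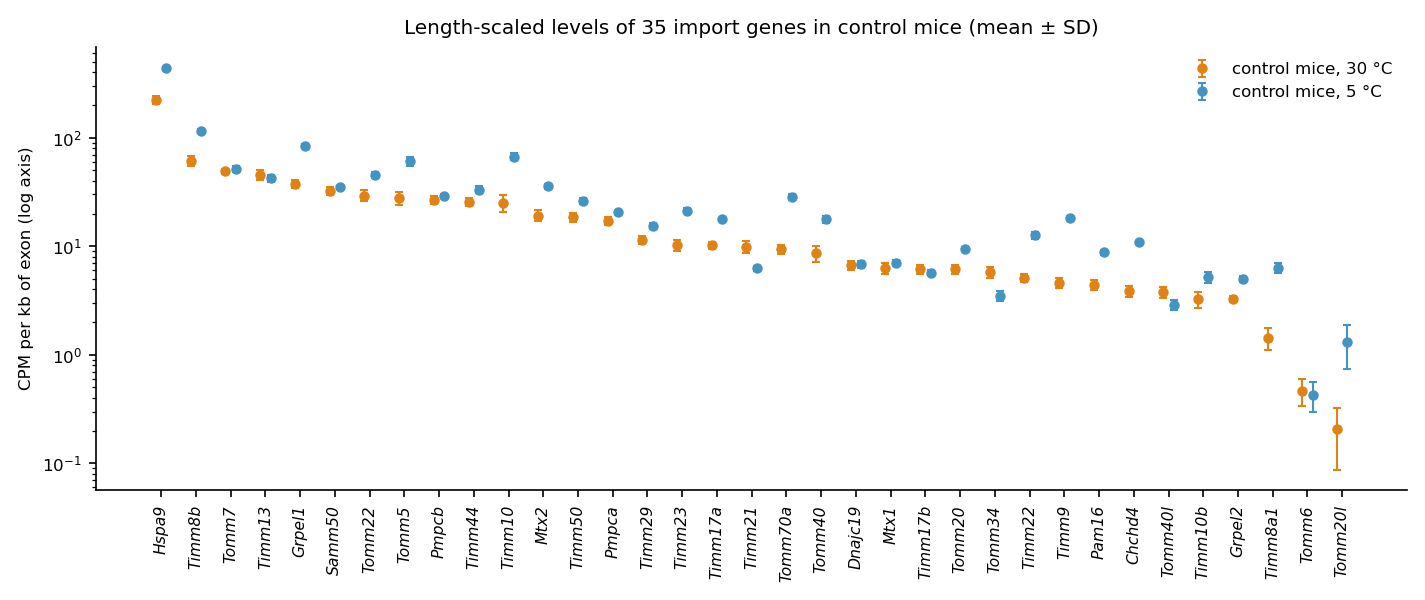
Level of each of the 35 tested import genes in control mice, as CPM per kb of summed exon length on a log axis, at 30 °C (orange, n = 7) and 5 °C (blue, n = 5), mean ± SD. Hspa9 stands at the top with 223 CPM per kb at 30 °C, and Timm9, Tomm70a and Chchd4 show wide gaps between the temperatures.

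Exposure of control mice to cold for 6 h raised 24 of the 35 tested import genes and lowered 3, with 8 not past the threshold (edgeR's quasi-likelihood test, Benjamini-Hochberg adjusted over 17286 genes, threshold 0.05). Of all genes tested, 31.6% were called higher and 33.4% lower, so that 68.6% of the members against 31.6% of all genes were higher and 8.57% against 33.4% were lower. The median log2 fold change of the members was 0.63, beside -0.01 over all genes. The mice at the 2 temperatures did not overlap for 26 members, beside 46.4% of all genes tested. All members together summed to 2511 ± 169 CPM (SD, n = 7) at thermoneutrality and to 4327 ± 90.3 CPM (SD, n = 5) after cold. As a share of the counts on nuclear genes, the members took 0.357% to 0.418% in control mice at thermoneutrality and 0.554% to 0.591% after cold. In whole tissue, a change in the number of cells of a type and a change in RNA per cell cannot be told apart. The 6 brown adipocyte markers summed to 2961 ± 478 CPM (SD) before and 21234 ± 830 CPM after cold, which came from Ucp1 (mean 985 and 16005 CPM), Dio2 (24.6 and 3152) and Elovl3 (0.572 and 203). Cidea (1189 and 1059 CPM), Cox7a1 (255 and 266) and Cox8b (507 and 548) stood close to their level at thermoneutrality. The endothelial sum was 484 ± 45.5 and 780 ± 57.4 CPM (SD), with Pecam1, Cdh5, Kdr and Cldn5 higher in mean and Tek lower (63.7 and 38.5 CPM). The sum of 5 general adipocyte markers was 6917 ± 202 and 9352 ± 392 CPM (SD). Fabp4 (mean 3759 and 7133 CPM) and Plin1 (652 and 769) were higher after cold. Adipoq (960 and 561 CPM), Lipe (1204 and 569) and Pparg (342 and 321) were lower. Lep, a white adipocyte marker, stood at 254 and 5.25 CPM in mean. The part of these markers in the result was not tested. With library size alone as the scaling, the median of all genes shifted to -0.14, and the members' median lay 0.65 above it. That distance was the same with the scaling used here, because a change of scaling shifts all genes by nearly the same amount. It is therefore no check of the result. Without the 10 libraries rich in muscle markers 24 members rose, and the members' median lay 0.61 above that of all genes. Without the 2 libraries lowest in mitochondrial share 25 rose, and the members' median lay 0.67 above. The share of all genes called was not counted with the libraries left out.

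Under the FAKO label, cold raised 28 of the 35 members and lowered 3, beside 33.7% and 34.9% of all genes. The members' median log2 fold change was 0.72 and that of all genes -0.03. Their sum was 2359 ± 139 CPM at thermoneutrality and 4351 ± 187 CPM after cold (SD, n = 7 each). The groups did not overlap for 28 members, beside 40.4% of all genes tested. The brown adipocyte markers summed to 2703 ± 307 CPM (SD) at thermoneutrality and 21663 ± 3158 CPM after cold, and the endothelial markers to 459 to 603 and 610 to 868 CPM over the mice. The macrophage sum was 129 ± 12.4 and 179 ± 18.5 CPM (142 ± 20.1 and 152 ± 15.2 in controls), and that of red blood cell markers 373 ± 101 and 874 ± 337 CPM (440 ± 286 and 461 ± 104 in controls). The macrophage markers split in both genotypes. In control mice Mrc1 (mean 50.7 and 87.2 CPM) and Cd68 (7.10 and 8.54) were higher after cold. Csf1r (42.6 and 20.9 CPM) and Adgre1 (16.0 and 9.96) were lower there, and C1qa stood at 26.0 and 25.9 CPM. Under the FAKO label Mrc1 (mean 44.2 and 107 CPM), Cd68 (7.09 and 10.4) and C1qa (24.0 and 28.9) were higher after cold. Csf1r (38.3 and 22.7 CPM) and Adgre1 (15.3 and 10.7) were lower. The part of all these markers in the members' counts was not tested. All 24 members that rose in control mice rose here too, and the 3 that fell were the same: Timm21, Tomm34 and Tomm40l. Mtx1, Pmpcb, Samm50 and Tomm7 passed the threshold in the mice labelled FAKO alone, which does not show a difference between the genotypes (the test of that difference is given further on). Dnajc19, Timm13, Timm17b and Tomm6 passed it in neither. With library size alone as the scaling, 19 members rose and 4 fell, while the median of all genes shifted to -0.34. The members' median lay 0.76 above it, against 0.75 with the scaling used here, a distance that scaling can hardly change. Leaving out the libraries rich in muscle markers gave 27 rises, and the members' median lay 0.85 above that of all genes. Leaving out those lowest in mitochondrial share gave 28, and the members' median lay 0.69 above. The share of all genes called was not counted with this other scaling or with libraries left out.

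**Figure D2:**
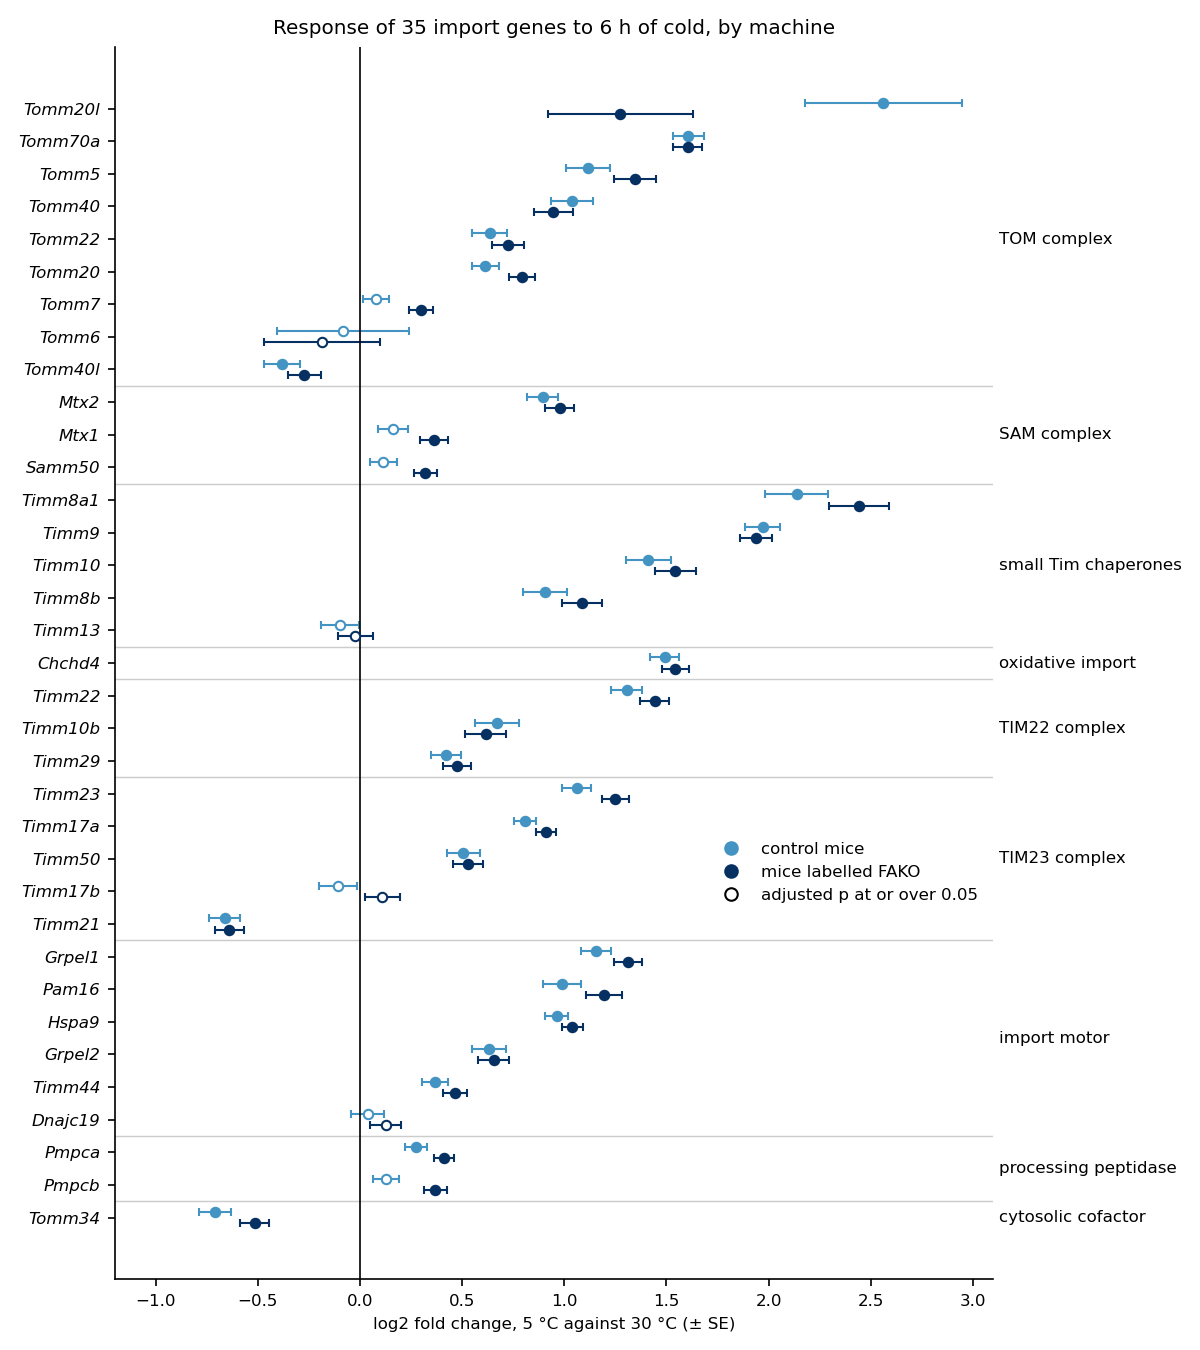
Log2 fold change (± SE) of 5 °C against 30 °C for the 35 tested import genes, grouped by machine, in control mice (light blue) and mice labelled FAKO (dark blue). Filled points passed the adjusted threshold of 0.05. Most points lie right of 0, and Timm21, Tomm34 and Tomm40l lie left of it in both genotypes.

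The small Tim chaperones, which carry hydrophobic proteins across the intermembrane space, held the steepest responses among members above 1 CPM. Of the 5 tested, 4 rose in both genotypes, beside 31.6% (control mice) and 33.7% (FAKO label) of all genes. Timm9, a subunit of the Timm9-Timm10 chaperone, ranged from 16.8 to 23.5 CPM (median 18.8) in control mice at thermoneutrality and measured 74.3, 74.7, 78.0, 78.7 and 81.6 CPM in the 5 control mice after cold. Mice labelled FAKO ranged from 17.2 to 23.9 (median 19.1) and from 62.1 to 81.5 CPM (median 74.9). Every mouse after cold lay far above every mouse at thermoneutrality. The log2 fold change of Timm9 was 1.97 ± 0.08 (SE) in control mice (edgeR adjusted p = 1.20e-16) and 1.94 ± 0.08 in the mice labelled FAKO (adjusted p = 3.68e-17). The annotation places Timm9 at chr12:71123173-71136684 on the minus strand (mm10), and its 3′ end overlaps that of Tomm20l on the other strand by 6.81% of the bases of Tomm20l.

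Timm10, the partner of Timm9, ranged from 15.9 to 24.7 CPM (median 20.5) in control mice at thermoneutrality and measured 49.5, 51.7, 54.4, 57.6 and 59.0 CPM after cold. Its log2 fold change was 1.41 ± 0.11 (SE) in control mice and 1.54 ± 0.10 in the mice labelled FAKO, and the groups did not overlap in either. Timm8a1, which works with Timm13 on another set of substrates and whose human counterpart is mutated in a deafness-dystonia syndrome, had the largest fold change among members above 1 CPM. It ranged from 1.5 to 2.77 CPM (median 2.02) in control mice at thermoneutrality and measured 8.21, 8.54, 8.92, 8.96 and 10.6 CPM after cold, a 4.40-fold rise (log2 fold change 2.14 ± 0.15, edgeR adjusted p = 2.74e-12). The value under the FAKO label was 2.44 ± 0.15. Timm8b rose less, with a log2 fold change of 0.90 ± 0.11 and 1.09 ± 0.10. Timm13, the partner of Timm8a1, did not pass the threshold: it stood at 62.1 ± 6.54 CPM (SD) and 58.0 ± 3.91 CPM in control mice, with a log2 fold change of -0.10 ± 0.09.

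Promoter windows of 300 bases (250 before and 50 after the start) from RefSeq on build GRCm38.p6 were at hand for 31 of the 36 members, 33 windows in all, and no window was given for Grpel2, Hspa9, Timm21, Tomm40l and Tomm7. Both strands were searched for 7 short motifs. The GABP/ETS motif CCGGAAGT stood in 8 of the 33 windows (24.2%), beside 3.89% of all 32851 windows and 5.15% of those of protein-coding genes. Those windows belonged to Mtx2, Pmpcb, Timm8a2, Timm10, Timm10b, Timm23, Timm29 and Tomm70a, whose tested members had log2 fold changes in control mice from 0.13 (Pmpcb) to 1.61 (Tomm70a). The core AAGGTCA of the ERR element stood in 3 windows (Timm8b, Timm23 and Timm44; 4.72% of all windows), the NRF1 core GCATGCGC in 2 (Grpel1 and Timm13; 2.71%), the YY1 core AAGATGGC in 2 (Mtx1 and Timm50; 2.75%) and the heat shock unit pair GAANNTTC in 1 (Timm9; 7.86%). TGACGTCA (the CRE; 1.79% of all windows) and TGATGCAA (C/EBP-ATF; 0.895%) matched no member's window. A match is a run of letters and was not tested as a binding site. The motifs differ in length, and no factor was assayed in these samples.

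The windows of 4 members that rose in both genotypes are shown because they hold 4 different motifs between them, given in capitals and all other bases in lower case, 5′ to 3′ on the gene's own strand. They lie at chr12:71136626-71136925 (Timm9, minus strand, heat shock unit pair read as GAAATTTC 197 bases before the start), chr16:57121464-57121763 (Tomm70a, plus strand, CCGGAAGT), chr14:32201842-32202141 (Timm23, minus strand, ACTTCCGG, which is the GABP/ETS motif on the other strand, and AAGGTCA) and chr5:36464935-36465234 (Grpel1, plus strand, GCGCATGC, the NRF1 core on the other strand).
Timm9: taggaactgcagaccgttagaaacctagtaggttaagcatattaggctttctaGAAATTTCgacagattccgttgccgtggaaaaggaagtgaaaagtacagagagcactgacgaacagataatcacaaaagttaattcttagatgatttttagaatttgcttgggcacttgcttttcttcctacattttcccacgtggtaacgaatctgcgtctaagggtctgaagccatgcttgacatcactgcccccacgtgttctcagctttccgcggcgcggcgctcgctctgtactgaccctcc
Tomm70a: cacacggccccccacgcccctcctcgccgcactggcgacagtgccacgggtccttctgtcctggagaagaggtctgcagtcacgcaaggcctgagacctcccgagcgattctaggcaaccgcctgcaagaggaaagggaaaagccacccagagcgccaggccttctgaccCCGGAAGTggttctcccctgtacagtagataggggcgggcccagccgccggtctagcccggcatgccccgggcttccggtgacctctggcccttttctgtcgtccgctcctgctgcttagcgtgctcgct
Timm23: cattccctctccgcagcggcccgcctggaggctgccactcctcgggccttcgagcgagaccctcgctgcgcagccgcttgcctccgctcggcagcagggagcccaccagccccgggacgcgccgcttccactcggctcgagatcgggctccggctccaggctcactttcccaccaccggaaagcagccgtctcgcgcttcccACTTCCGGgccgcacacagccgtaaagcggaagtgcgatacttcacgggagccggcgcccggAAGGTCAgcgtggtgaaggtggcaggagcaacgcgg
Grpel1: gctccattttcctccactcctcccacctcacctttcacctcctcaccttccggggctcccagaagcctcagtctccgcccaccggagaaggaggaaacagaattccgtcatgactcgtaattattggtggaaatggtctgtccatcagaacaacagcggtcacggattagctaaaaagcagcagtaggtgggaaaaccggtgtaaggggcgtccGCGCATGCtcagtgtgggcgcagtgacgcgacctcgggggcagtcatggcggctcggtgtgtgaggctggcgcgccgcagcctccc

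At the outer membrane, Tomm40l fell in both genotypes. Of the 9 TOM genes, 6 rose in control mice and 7 in the mice labelled FAKO, beside 31.6% and 33.7% of all genes. Tomm70a, the receptor for carrier proteins and the docking site of cytosolic Hsp70 and Hsp90, led the TOM genes above 1 CPM. It ranged from 81.5 to 103 CPM (median 85.7) in control mice at thermoneutrality and measured 258, 273, 279, 281 and 306 CPM after cold. Mice labelled FAKO had 83.1 to 106 CPM (median 87.3) at thermoneutrality and from 246 to 305 CPM (median 286). No mouse after cold came near the range at thermoneutrality, and the log2 fold change was 1.61 ± 0.08 (SE) in control mice (edgeR adjusted p = 8.31e-16) and 1.60 ± 0.07 in the mice labelled FAKO. Tomm20, the receptor for presequences, rose less, with 26.7 to 34.5 CPM (median 29.6) in control mice at thermoneutrality and 43.8, 44.9, 45.5, 47.8 and 48.9 CPM after cold (log2 fold change 0.61 ± 0.07, adjusted p = 9.33e-09).

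Tomm40, the channel of the outer membrane, went from 30.1 to 48.9 CPM (median 39.5) at thermoneutrality to 71.9, 75.7, 80.8, 82.9 and 86.9 CPM after cold in control mice. Its log2 fold change was 1.04 ± 0.10 (SE) and, in the mice labelled FAKO, 0.95 ± 0.10. Tomm22, the central receptor that ties the complex together, rose by a log2 fold change of 0.63 ± 0.08 and 0.72 ± 0.08. The small subunits diverged: Tomm5 rose (1.12 ± 0.11 and 1.35 ± 0.10), whereas Tomm7 did not pass the threshold in control mice (0.08 ± 0.06, edgeR adjusted p = 0.285) and passed it in the mice labelled FAKO (0.30 ± 0.06), where the groups overlapped. The call of Tomm7 was lost with library size alone as the scaling (-0.0207). Tomm6, at 4 to 23 counts per mouse and uncertain because of its overlap with other genes, had a log2 fold change of -0.08 ± 0.32 in control mice. Tomm20l, a relative of Tomm20 read at 0.149 ± 0.0865 CPM (SD) in control mice at thermoneutrality, reached 0.943 ± 0.411 CPM after cold (log2 fold change 2.56 ± 0.38). Its groups overlapped in the mice labelled FAKO (log2 fold change 1.27 ± 0.35), and the call was lost when the 10 libraries rich in muscle markers were left out (0.88, adjusted p = 0.111). Tomm40l, a relative of Tomm40, fell by 0.38 on the log2 scale with overlapping groups in control mice.

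Among the genes of the SAM complex, Mtx2, which forms its cytosolic face together with Mtx1, rose in both genotypes. It ranged from 62.8 to 83.4 CPM (median 65.3) in control mice at thermoneutrality and measured 124, 126, 127, 136 and 141 CPM after cold (log2 fold change 0.89 ± 0.07 SE, edgeR adjusted p = 5.88e-11). Samm50, the barrel of the complex, ranged from 180 to 227 CPM (median 218) and measured 224, 225, 226, 234 and 239 CPM after cold, so that the groups overlapped (0.11 ± 0.06, adjusted p = 0.117). Samm50 moved in the mice labelled FAKO from 189 to 210 CPM (median 197) to 217 to 298 CPM (median 243), a log2 fold change of 0.32 ± 0.06 that passed the threshold. With library size alone as the scaling, Samm50 had a log2 fold change of 0.00172 in the mice labelled FAKO and was not called. Mtx1 shares 30.1% of its exonic bases with genes on the other strand and had a log2 fold change of 0.16 ± 0.08 in control mice (adjusted p = 0.0615) and 0.36 ± 0.07 in the mice labelled FAKO, where the call was lost with library size alone (0.05).

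Chchd4, which drives oxidative folding in the intermembrane space and has the small Tim proteins among its substrates, was higher in every mouse after cold than in any mouse at thermoneutrality. Its range was 16.9 to 23.7 CPM (median 20.8) in control mice at thermoneutrality, and it measured 54.0, 56.0, 56.2, 56.9 and 59.3 CPM after cold. The ranges under the FAKO label were 17.1 to 21.6 CPM (median 19.4) and 52.3 to 64.3 CPM (median 57.5). The groups were wide apart, with log2 fold changes of 1.49 ± 0.07 (SE; edgeR adjusted p = 1.21e-15) and 1.54 ± 0.07 (adjusted p = 1.34e-16). All 3 genes of the TIM22 route rose in both genotypes, beside 31.6% (control mice) and 33.7% (FAKO label) of all genes. Timm22, the channel that inserts carriers into the inner membrane, ranged from 14.3 to 18.5 CPM (median 15.9) in control mice and measured 36.7, 38.0, 40.8, 42.1 and 43.1 CPM after cold (log2 fold change 1.31 ± 0.08). Timm10b, a small Tim bound to the complex, and Timm29, its metazoan subunit, rose by log2 fold changes of 0.67 ± 0.11 and 0.42 ± 0.07 in control mice. With library size alone as the scaling, both calls were lost in the mice labelled FAKO (0.31 and 0.17).

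The TIM23 genes did not move together. Timm23, the channel for presequence proteins, ranged from 14.7 to 20.6 CPM (median 18.8) in control mice at thermoneutrality and measured 35.4, 37.5, 37.8, 39.7 and 40.0 CPM after cold. Its ranges under the FAKO label were 14.8 to 19.0 CPM (median 16.7) and 36.2 to 43.9 CPM (median 40.4). The temperatures did not overlap, and the log2 fold changes were 1.06 ± 0.07 (SE; edgeR adjusted p = 7.38e-13) and, under the FAKO label, 1.25 ± 0.07. Timm17a, a channel partner of Timm23, rose from 72.6 to 90.8 CPM (median 80.7) to 134, 141, 142, 143 and 145 CPM in control mice, whereas its relative Timm17b measured 14.0 to 18.5 CPM (median 15.6) and 13.8, 14.1, 14.3, 15.1 and 15.6 CPM. Timm17b overlapped between the temperatures, with log2 fold changes of -0.11 ± 0.09 in control mice and 0.11 ± 0.09 in the mice labelled FAKO. Timm50, the receptor that hands presequences to the channel, rose by 0.51 ± 0.08 and 0.53 ± 0.07, and the second call was lost with library size alone (0.22).

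Timm21, which links TIM23 to the TOM complex and to the assembly of respiratory chain enzymes, was the TIM23 gene that fell. It ranged from 28.9 to 43.0 CPM (median 36.5) in control mice at thermoneutrality and measured 22.2, 22.2, 23.3, 23.8 and 24.8 CPM after cold. Mice labelled FAKO went from 34.9 to 39.5 CPM (median 35.8) to 21.4 to 27.7 CPM (median 22.7). The temperatures did not overlap in either genotype, and Timm21 fell by 0.66 (control, edgeR adjusted p = 2.95e-08) and by 0.64 on the log2 scale. Tomm34, a cytosolic partner of Hsp70 and Hsp90 and not a subunit of a membrane complex, fell as well. Its values were 14.4 to 20.3 CPM (median 17.4) and 9.06, 10.1, 10.9, 11.3 and 11.9 CPM in control mice (log2 fold change -0.71 ± 0.08, adjusted p = 1.13e-08), and it fell by 0.52 on the log2 scale in the mice labelled FAKO.

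In the import motor, 5 of the 6 genes rose in both genotypes, beside 31.6% (control mice) and 33.7% (FAKO label) of all genes. Hspa9, the most abundant member, ranged from 846 to 1046 CPM (median 1010) in control mice at thermoneutrality and measured 1798, 1870, 1889, 1910 and 1915 CPM after cold. Mice labelled FAKO had 802 to 953 CPM (median 871) at thermoneutrality and 1707 to 1856 CPM (median 1810) after cold. These groups were apart, with a 1.95-fold rise in control mice (log2 fold change 0.96 ± 0.06 SE, edgeR adjusted p = 5.65e-14) and a 2.06-fold rise in the mice labelled FAKO. Without Hspa9 the summed members still rose, from 1549 ± 108 to 2450 ± 58.5 CPM (SD) in control mice. Grpel1, the nucleotide exchange factor of Hspa9, ranged from 114 to 149 CPM (median 131) and measured 280, 283, 299, 304 and 306 CPM after cold (1.16 ± 0.07). Pam16, a regulatory subunit on the matrix side, rose by 0.99 ± 0.09, Grpel2 by 0.63 ± 0.08 and Timm44, which anchors the motor to the channel, by 0.37 ± 0.06 (log2 fold changes, control mice). Timm44 lost its call under the FAKO label with library size alone (0.15). Dnajc19, the J-protein counterpart of Pam16, had 26.8 ± 2.69 CPM (SD) and 27.5 ± 1.88 CPM in control mice and a log2 fold change of 0.04 ± 0.08, whose sign turned with other scalings.

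The subunits of the mitochondrial processing peptidase changed little beside the channels. Pmpca, its substrate-binding subunit, ranged from 63.9 to 81.0 CPM (median 72.9) in control mice at thermoneutrality and measured 84.9, 87.1, 89.0, 89.7 and 92.6 CPM after cold (log2 fold change 0.27 ± 0.05 SE, edgeR adjusted p = 8.47e-05), a call that was lost with library size alone (0.15, adjusted p = 0.105). Pmpcb, the catalytic subunit, ranged from 118 to 158 CPM (median 136) and measured 144, 147, 150, 153 and 156 CPM, within the range at thermoneutrality (0.13 ± 0.06, adjusted p = 0.0753). Under the FAKO label the log2 fold changes were 0.41 ± 0.05 and 0.37 ± 0.06, both past the threshold, and both calls were lost with library size alone as the scaling (0.08 and 0.05).

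**Figure D3:**
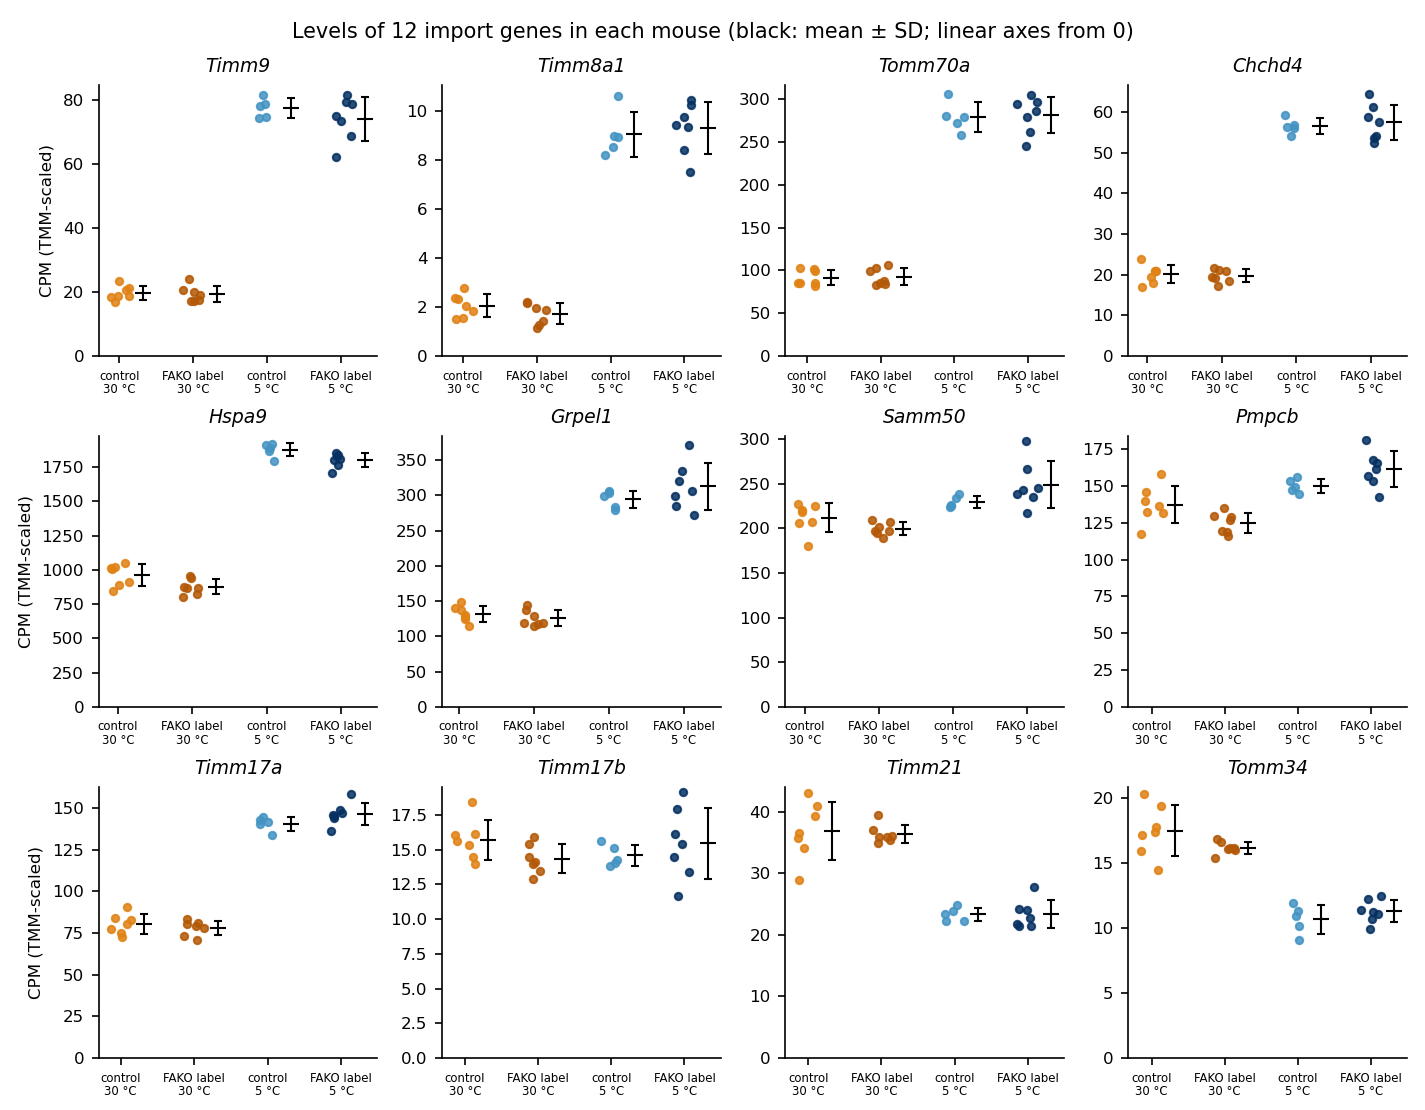
CPM in each mouse for 12 import genes on linear axes from 0, for both genotypes at both temperatures (n = 7, 7, 5 and 7), with mean ± SD in black. Timm9, Timm8a1, Tomm70a, Chchd4, Hspa9, Grpel1 and Timm17a sit higher in every mouse after cold, Timm21 and Tomm34 lower, and Timm17b overlaps throughout.

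Genes that share a task could be compared within a mouse, since a ratio of 2 genes from the same library is free of the scaling between libraries apart from the prior count. Such ratios were tested for 7 pairs of relatives or partners with exact two-sided permutation tests, adjusted over 21 tests (Benjamini-Hochberg). The log2 ratio of Timm17a to Timm17b went from 2.35 ± 0.11 (SD) to 3.26 ± 0.11 in control mice, a rise of 0.91, and rose by 0.82 in the mice labelled FAKO (adjusted exact p = 0.00265 and 0.00245). Timm8a1 gained on Timm8b by 1.20 and 1.32, Grpel1 on Grpel2 by 0.53 and 0.67, and Tomm40 on Tomm40l by 1.42 and 1.22, with the same adjusted p-values. In those 4 pairs the mice after cold did not overlap with the mice at thermoneutrality. The ratio of Tomm40 to Tomm40l is uncertain, because 64.3% of the bases of Tomm40l lay within Nr1i3 on the opposite strand. Timm8b and Grpel1 share smaller parts with genes on the opposite strand (15.6% and 11.65%), which limits their ratios too. The raw values 0.00126 (7 mice against 5) and 0.000583 (7 against 7) are the smallest that these designs can give.

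Within the complexes that need both partners, the ratio moved as well. Timm9 gained on Timm10 by 0.55 in control mice and by 0.39 in the mice labelled FAKO (adjusted exact p = 0.00482 and 0.00612), with overlapping groups in the second. The log2 ratio of Mtx1 to Mtx2 fell by 0.73 and by 0.62 (adjusted exact p = 0.00265 and 0.00245). Mtx1 and Pmpca share 30.1% and 20.4% of their exonic bases with genes on the opposite strand, which limits their ratios. Pmpca gained 0.14 on Pmpcb in control mice with overlapping groups (adjusted exact p = 0.0224), and the change of 0.04 in the mice labelled FAKO did not pass (adjusted exact p = 0.523). The control value rested on single mice: without control mouse 2 or 7 at thermoneutrality or mouse 21 after cold it was 0.13, 0.13 and 0.12 and no longer passed. None of the 7 differences between the genotypes passed, and the smallest adjusted exact p among them was 0.176 (Tomm40 to Tomm40l, -0.20).

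**Figure D4:**
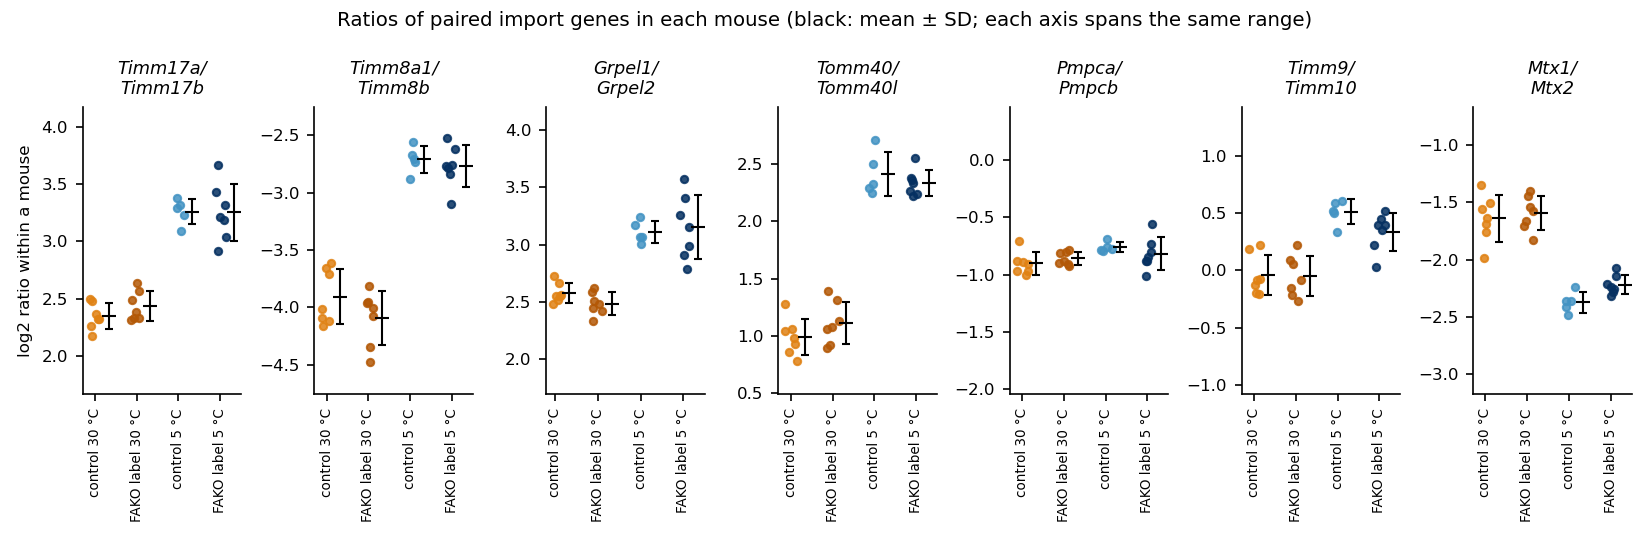
Log2 ratio of 2 import genes within each mouse (TMM-scaled CPM, prior count 2) for 7 pairs, by group, with mean ± SD in black. Each axis spans the same range, and the heights are not scaled to gene length, so that only shifts between groups can be read. Ratios shift up after cold for Timm17a/Timm17b, Timm8a1/Timm8b, Grpel1/Grpel2 and Tomm40/Tomm40l and down for Mtx1/Mtx2. The values of Tomm40l are uncertain because most of its bases lie within Nr1i3 on the opposite strand. Mtx1, Pmpca, Timm8b and Grpel1 share smaller parts with genes on the opposite strand.

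The FAKO label itself moved no import gene past the threshold. At thermoneutrality 0 of 35 members were called by edgeR, beside 0.081% of all genes. An unadjusted p below 0.05 was found for 4 members, beside 1322 of the 17286 genes tested. DESeq2 also called 0. The 3 with the smallest p were Hspa9, Tomm7 and Pmpcb, with log2 differences of -0.13 ± 0.05 (SE), -0.15 ± 0.06 and -0.14 ± 0.06 against control (edgeR adjusted p = 0.506, 0.510 and 0.573). Hspa9 ranged from 846 to 1046 CPM in control mice and from 802 to 953 CPM in the mice labelled FAKO, so the ranges overlapped. The members' differences were negative for 29 and positive for 6, with a median of -0.05 beside -0.02 over all genes. With library size alone, where the median of all genes shifted to 0.13, 32 were positive. The standard errors of members above 1 CPM ran from 0.05 to 0.15 on the log2 scale.

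After cold 0 of 35 members were called between the genotypes, beside 0.139% of all genes, with 0 calls by DESeq2. An unadjusted p below 0.05 was found for 1 member, beside 2323 of the 17286 genes tested. The smallest p-values belonged to Tomm20l (-0.73 ± 0.32 SE, edgeR adjusted p = 0.320), Tomm20 (0.13 ± 0.07, adjusted p = 0.390) and Mtx1 (0.15 ± 0.08, adjusted p = 0.399). Tomm20 measured 43.8, 44.9, 45.5, 47.8 and 48.9 CPM in control mice and 47.5 to 54.4 CPM (median 50.7) in the mice labelled FAKO, and these ranges overlapped. The median difference was 0.05, beside 0.02 over all genes, with 28 members positive and 7 negative. With library size alone 18 were positive and 17 negative (median 0.01). The median was 0.14 without the 10 libraries rich in muscle markers and 0.02 without mouse 28 of those labelled FAKO.

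**Figure D5:**
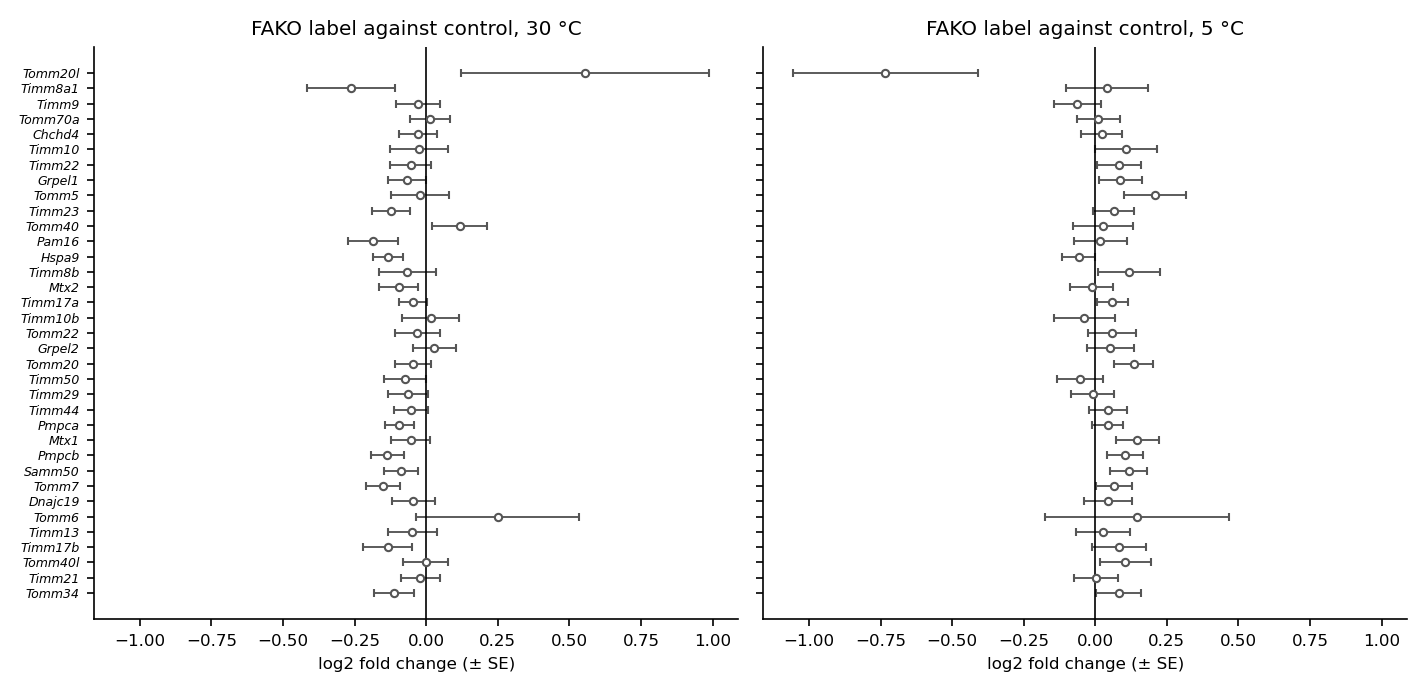
Log2 fold change (± SE) of mice labelled FAKO against control mice for the 35 tested import genes at 30 °C (left) and 5 °C (right), in the order of their cold response in control mice. All points are open because 0 passed the adjusted threshold at either temperature, and the widest error bars belong to Tomm20l and Tomm6, which lie below 1 CPM.

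The cold response did not differ between the genotypes for any import gene at the threshold. The interaction called 0 of 35 members, beside 1.16% of all genes, with 0 calls by DESeq2. An unadjusted p below 0.05 was found for 4 members, beside 2804 of the 17286 genes tested. Pmpcb had the smallest p: its response was larger by 0.24 ± 0.09 (SE) on the log2 scale in the mice labelled FAKO (edgeR adjusted p = 0.157). Tomm7 followed with 0.22 ± 0.09 (adjusted p = 0.213), then Tomm20l with -1.29 ± 0.54 and Samm50 with 0.21 ± 0.09 (both adjusted p = 0.235). For Timm9, Tomm70a and Chchd4, the members above 1 CPM with the steepest rises after Timm8a1 in control mice, the differences were -0.03 ± 0.11, -0.0029 ± 0.10 and 0.05 ± 0.10. The median over the members was 0.11, beside 0.04 over all genes. It lay 0.06 above the median of all genes with either TMM factors or library size alone, a distance that scaling can hardly change. Without the 10 libraries rich in muscle markers the members' median was 0.20, which lay 0.17 above that of all genes.

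Other genes of import and its surroundings were counted from lists written by hand. Of 16 further import and folding genes, 11 rose and 2 fell in control mice, and 12 rose in the mice labelled FAKO. These were 68.8% higher and 12.5% lower in control mice, beside 31.6% and 33.4% of all genes, and the 12 rises in the mice labelled FAKO stood beside 33.7% of all genes. The matrix chaperonin genes Hspe1 and Hspd1, which fold newly imported proteins, had log2 fold changes of 1.81 ± 0.12 (SE) and 1.10 ± 0.08 in control mice, and Xpnpep3, a presequence-trimming peptidase, 0.69 ± 0.06. The 2 that fell in control mice were Mipep, a matrix peptidase (-0.28 ± 0.08), and Immp2l, an inner membrane peptidase (-0.50 ± 0.09), while its partner Immp1l rose (0.62 ± 0.08). The 7 cytosolic chaperone genes, which keep precursors unfolded on the way to the receptors, rose in 6 cases in both genotypes (85.7%, beside 31.6% and 33.7% of all genes), with Hsp90aa1 at 2.93 ± 0.21, Hspa8 at 2.43 ± 0.18 and Dnaja2 at 1.34 ± 0.07 in control mice. Of 11 genes of proteases and prohibitins, 7 rose and 3 fell in control mice and 8 rose and 2 fell in the mice labelled FAKO. The rises were 63.6% and 72.7% of the list, above the shares of all genes (31.6% and 33.7%), while the falls were 27.3% in control mice, near the 33.4% of all genes, and 18.2% beside 34.9%. Oma1, a stress-activated inner membrane protease, had a log2 fold change of -1.02 ± 0.10, the protease Afg3l2 0.72 ± 0.06 and the prohibitin Phb 0.64 ± 0.06, in control mice. Htra2 (-0.48 ± 0.08) and Spg7 (-0.32 ± 0.07) were the other falls there, and Spg7 did not pass the threshold under the FAKO label (-0.11 ± 0.06).

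Of 12 regulators of mitochondrial genes and stress, 8 rose in control mice, and 7 rose and 1 fell in the mice labelled FAKO (66.7% and 58.3% higher, beside 31.6% and 33.7% of all genes). The gene that fell was Ddit3, a stress factor (-0.40 ± 0.17 SE). Ppargc1a, the cold-induced coactivator of mitochondrial genes, had a log2 fold change of 4.07 ± 0.21 (SE), and Atf5 and Atf4, factors of the mitochondrial and integrated stress responses, 2.22 ± 0.20 and 2.18 ± 0.15, in control mice. Gabpa, the DNA-binding subunit of GABP, rose by 0.66 ± 0.09, Esrra, which encodes ERRα, by 0.65 ± 0.11, and Nrf1 did not pass the threshold (0.13 ± 0.07, edgeR adjusted p = 0.0756). These last 3 were named for the motifs above, after their values were seen. Yy1 and Hsf1, the factors of the YY1 core and the heat shock unit pair, were on the list too. Their values are not given here.

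The import genes could be set beside the other large groups of nuclear-encoded mitochondrial genes. Of 77 tested genes of the mitochondrial ribosome, 49.4% rose and 15.6% fell in control mice with a median log2 fold change of 0.19, and of 82 tested respiratory chain subunits 23.2% rose and 9.76% fell with a median of 0.10. The import genes had 68.6%, 8.57% and 0.63 in the same comparison, and all genes 31.6%, 33.4% and -0.01, so the share of respiratory chain genes that rose lay below that of all genes. In the mice labelled FAKO, 70.1% of the ribosomal genes, 79.3% of the respiratory chain genes and 80.0% of the import genes rose, beside 33.7% of all genes, with medians of 0.33, 0.30 and 0.72. These are descriptions of named lists, and no test between the lists was made. Unequal shares of calls in the 2 genotypes do not show a difference between them. The interaction test of edgeR called 0 of 77 ribosomal, 0 of 82 respiratory chain and 0 of 35 import genes, beside 1.16% of all genes. Its unadjusted p lay below 0.05 for 13, 46 and 4 of them, beside 2804 of 17286 genes. At thermoneutrality, 29 of the 82 respiratory chain genes and 4 of the 35 import genes had an unadjusted p below 0.05 for the label. Of all genes tested, 1322 of 17286 had such a p. In each list 0 passed the adjusted threshold.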

How the data were processed

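BAT RNA was sequenced in 26 mice. Reads had been mapped to mm10 by the authors (STAR 2.5.2b) and assigned to GENCODE M13 genes (featureCounts 1.5.2), and the deposited values are raw counts. All 26 columns were used and grouped by their labels. Symbols, coordinates and exon lengths came from GENCODE M21, in which 50462 of the 50686 genes had a symbol.

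Genes were kept with filterByExpr by group (17286), scaled with TMM factors and tested in R 4.3.3 with edgeR 4.0.16 (limma 3.58.1) by its legacy quasi-likelihood test with a term for each group, and p-values were adjusted by Benjamini-Hochberg over all genes. The effects of cold (per genotype), of the label (per temperature) and their interaction were tested. Since nothing but the mouse is given as replicate, p-values measure the spread between mice. All 73 pairs of libraries within a group differed beyond sampling noise. CPM are TMM-scaled. Log2 ratios used a prior count of 2 and exact permutation tests. The steps were tested on simulated data. Depth was 12705969 to 25732258 counts per library, and low members rest on few counts.

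The members, lists and tests were chosen with earlier results of these data known. Named were core genes of each machine, the 4 largest rises and falls past the threshold without overlap and above 1 CPM, the 3 smallest p-values where nothing passed, members of pairs, members failing the filter, and the 3 largest changes past the threshold of each list. Any other gene was named after its values were seen. Alternatives were DESeq2 1.42.0, other scalings, filters, edgeR's revised method, robust estimation, only the groups compared, and leaving out each mouse. Leaving out the mitochondrial genome, the 2 libraries with the lowest mitochondrial share, or those rich in muscle markers was chosen after seeing the data.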

Additional observations from a re-analysis of the deposited data

Results flagged for a closer look

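Of 144 sets of values (36 members in 4 groups), 6 held a mouse that stood apart from the others of its group by Dixon's 95% critical value, and chance gives about 1 in 20. Among the mice labelled FAKO after cold, mouse 28 had 34.4 CPM of Dnajc19, beside a median of 27.0 CPM in the other 6, and 80.9 CPM of Timm13, beside 54.8 CPM. That mouse also had the lowest share of counts on the mitochondrial genome in its group (19.2%). In control mice after cold, mouse 19 was low for Pam16 with 19.7 CPM (median of the others 21.6 CPM) and mouse 18 was high for Timm44 with 138 CPM (118 CPM). At thermoneutrality, control mouse 7, which had the lowest mitochondrial share of all libraries (14.3%), had 15.6 CPM of Timm10b (10.9 CPM in the others), and mouse 10 of those labelled FAKO had 1.34 CPM of Tomm6, which is 23 counts (0.532 CPM in the others).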

How the results depend on the processing

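All 187 recomputed counts of members past the threshold stayed within 1.5 times the value reported. They include the counts for the label and the interaction, which were 0 in every setting. The limit is wide, and it also passed the fewer rises under the FAKO label with library size alone. No paired analysis was possible because the replicate numbers are not shared between groups. Scaling mattered most. Library size alone took the calls of Pmpca in control mice (0.15) and, in the mice labelled FAKO, of Pmpca (0.08), Mtx1 (0.05), Pmpcb (0.05), Timm50 (0.22), Timm10b (0.31), Timm44 (0.15), Timm29 (0.17) and Samm50 (0.00172), and Timm13 was then called lower (-0.32). The members' median was 0.51 and 0.42 with library size alone and 0.53 and 0.57 with upper-quartile factors (control mice, mice labelled FAKO), and for the label at thermoneutrality and the interaction it turned to 0.09 and -0.09 with library size alone.

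Signs turned for values that were not called, apart from Tomm7 in the mice labelled FAKO. In control mice Dnajc19 became -0.0876 (library size alone), -0.0677 (upper-quartile factors), -0.00676 (at least 10 counts in every mouse), -0.00733 (only the groups compared) and -0.0597 (libraries rich in muscle markers left out), Tomm7 -0.0402 and -0.0262 (library size, upper-quartile) and Samm50 -0.000283 (library size). In the mice labelled FAKO, Dnajc19 became -0.185 and -0.0294 and Timm17b -0.207 and -0.0455 (library size, upper-quartile), Tomm7 -0.0207 (library size), and Timm13 0.0612 (libraries rich in muscle markers left out). For the label at thermoneutrality, Hspa9 and Pmpcb became 0.0215 and 0.0127 (library size). The cause was not tested.

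Leaving out each mouse in turn gave -0.213 to 0.0463 for Tomm6 in control mice and -0.356 to 0.0927 in the mice labelled FAKO, and -0.114 to 0.0110 for Timm13 in the latter. Mtx1 in control mice passed the threshold without control mouse 2 or 6 at thermoneutrality or 17 after cold (0.12 to 0.20 over all mice left out), and Pmpcb without mouse 2 (0.09 to 0.16). The ratio of Pmpca to Pmpcb ran from 0.12 to 0.18 in control mice and from -0.000965 to 0.0741 in the mice labelled FAKO, and its difference between genotypes from -0.144 to -0.0691, passing the threshold without mouse 25 of those labelled FAKO after cold. Members under 1 CPM rest on few counts, and those of Tomm6 may also be limited by its overlap with other genes, which was not tested.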
